A study of Mus musculus with 3 samples.

Results

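The genes described here make retinoic acid (Aldh1a1, Aldh1a2, Aldh1a3), break it down (Cyp26a1, Cyp26b1, Cyp26c1) or bind it as receptors (Rara, Rarb, Rarg, Rxra). They were chosen by name for their place in the pathway, with earlier results of these data known. Their data are the Isl1 ChIP-Seq peaks assigned to these symbols, which came to 19 of the 14082 distinct peaks (0.135%), spread over 9 of the 10 genes. Isl1 is a LIM-homeodomain factor of second heart field progenitors. ChIP-Seq sequences the DNA that an antibody pulls down with a protein, and a peak is a region where the pulldown was enriched over input chromatin. Chromatin came from cardiac progenitor cells (CPCs) collected at day 5 of differentiation of the mouse line E14 Tg(Nkx2-5-EmGFP). The sample titles do not say whether the CPCs were sorted. The line consists of embryonic stem cells whose reporter marks activity of the cardiac gene Nkx2-5. All 3 samples came from this line: 2 Isl1 ChIP replicates and 1 input, with no other genotype or treatment. The deposited data were 1 peak list for both replicates together, with no score and no read number, so the library depth is unknown and no replicate error can be given. The list holds no expression, and the labelled cell type was therefore not checked against markers.

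Retinoic acid is made from vitamin A in steps that end with the oxidation of retinal by the retinaldehyde dehydrogenases, and the Cyp26 enzymes hydroxylate it and so clear it. The acid binds a receptor of the Rar family, which pairs with an Rxr partner and contacts DNA at direct repeats of a short core, known as retinoic acid response elements. In the early embryo Aldh1a2 is the main source of the acid, and the signal is known to set the posterior border of the second heart field.

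Peaks of these genes fell into 2 kinds of sequence, and the stretches below show both. Single-copy sequence surrounded the peaks near transcription start sites (TSSs). The stretches are written 5′ to 3′ on the strand of the gene, from the mm9 sequence. The first is the 100 bases before the Aldh1a2 start (chr9:71063496-71063595, plus strand). The second is the 100 bases before the start of the shorter Cyp26b1 transcript, which lie in an intron of the longer one (chr6:84538633-84538732, minus strand). Capitals mark CpG dinucleotides, of which these stretches hold 13 and 15, with a GC content of 71.0% and 81.0%.
Aldh1a2 promoter: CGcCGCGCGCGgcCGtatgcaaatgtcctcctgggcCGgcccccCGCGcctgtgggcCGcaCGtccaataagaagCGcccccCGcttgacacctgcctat
Cyp26b1 internal promoter: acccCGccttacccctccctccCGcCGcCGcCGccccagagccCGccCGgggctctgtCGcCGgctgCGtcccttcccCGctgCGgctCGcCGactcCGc

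The next stretches come from single-copy peaks with letters that resemble receptor or homeodomain contacts. In the Rara peak (chr11:98821291-98821370, plus strand) capitals mark a DR5, which is a direct repeat of 2 receptor core hexamers with 5 bases between them and the classical form of a retinoic acid response element. In the Rarg peak (chr15:102077601-102077685, minus strand) capitals mark 2 single core hexamers. In the Cyp26c1 peak (chr19:37761878-37762028, plus strand) they mark a TAAT homeodomain core and a core hexamer on the other strand. The first 7 bases of the Cyp26c1 stretch are coding, and the rest is intron.
Rara DR5: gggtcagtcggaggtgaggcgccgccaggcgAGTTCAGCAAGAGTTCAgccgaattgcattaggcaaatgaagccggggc
Rarg intron: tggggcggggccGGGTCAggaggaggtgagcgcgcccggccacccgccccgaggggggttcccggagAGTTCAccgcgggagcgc
Cyp26c1 intron: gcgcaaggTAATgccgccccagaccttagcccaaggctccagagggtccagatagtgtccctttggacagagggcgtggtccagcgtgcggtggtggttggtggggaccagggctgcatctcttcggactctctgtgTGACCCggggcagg

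The peaks far from any start site lay in repeated sequence. The 3 stretches of 212 bases below are 1 unit each of tandem repeats under distal peaks of Aldh1a3 (chr7:73686424-73686635, plus strand), Cyp26b1 (chr6:84637770-84637981, plus strand) and Rarb (chr14:17806632-17806843, minus strand). Each starts at a TAAT, in capitals, and is written on the strand of that TAAT. They show how alike single units, lined up at this TAAT, were on 3 chromosomes, and not how alike the whole peaks were.
Aldh1a3 repeat unit: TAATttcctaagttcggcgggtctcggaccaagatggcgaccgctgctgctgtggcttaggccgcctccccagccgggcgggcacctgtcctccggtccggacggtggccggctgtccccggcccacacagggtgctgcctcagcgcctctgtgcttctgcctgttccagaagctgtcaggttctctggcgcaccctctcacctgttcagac
Cyp26b1 repeat unit: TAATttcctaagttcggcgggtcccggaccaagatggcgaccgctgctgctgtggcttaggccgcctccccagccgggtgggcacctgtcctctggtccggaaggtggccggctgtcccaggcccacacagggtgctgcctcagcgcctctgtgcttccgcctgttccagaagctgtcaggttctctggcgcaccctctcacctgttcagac
Rarb repeat unit: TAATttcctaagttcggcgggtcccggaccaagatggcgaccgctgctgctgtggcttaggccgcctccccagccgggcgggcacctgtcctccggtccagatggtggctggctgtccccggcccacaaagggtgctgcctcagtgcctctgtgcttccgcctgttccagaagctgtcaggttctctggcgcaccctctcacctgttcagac

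A simple repeat lay under the intronic peak of Aldh1a2 (chr9:71088803-71088902, plus strand), in which runs of CA and CG alternated.
Aldh1a2 intron: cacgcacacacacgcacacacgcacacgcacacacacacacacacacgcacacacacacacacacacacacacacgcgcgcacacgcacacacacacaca

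Of the 10 genes, 9 had an assigned peak at any distance, against 39.0% of 21027 protein-coding genes. A peak within 1 kb of the TSS was assigned to 4 of the 10 (Aldh1a2, Rara, Rarg, Rxra), against 24.2%. A peak within 10 kb was assigned to 6, against 28.3%, and the same 6 genes had a single-copy peak, against 28.7%. These were the former 4 with Cyp26b1 and Cyp26c1. At least 2 peaks were assigned to 5 genes, against 11.0%. Cyp26b1 had 5 peaks, Rarb and Rarg had 3 each, Rara and Aldh1a2 had 2 each, and Aldh1a3, Cyp26a1, Cyp26c1 and Rxra had 1 each. Among the 8207 protein-coding genes with a peak, 2.33% had 5 or more. Aldh1a1 had none. The genes were picked by name, with earlier results of these data known, and are few. These shares are therefore given only as a description of this list.

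**Figure D1:**
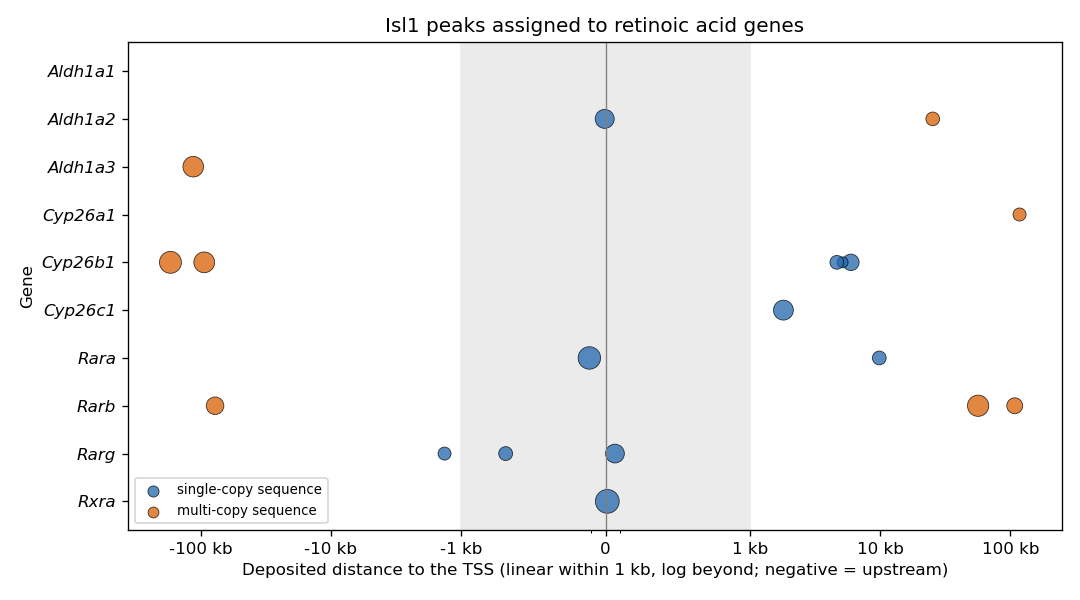
Each row is a gene and each point 1 Isl1 peak, placed by its deposited distance to the TSS (horizontal axis, linear within 1 kb and logarithmic beyond, negative values upstream) and sized by peak width. The 11 blue points (single-copy sequence) lie within 10 kb of a start site and the 8 orange points (multi-copy sequence) lie farther away, and the Aldh1a1 row is empty.

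Among the genes of synthesis, the occupied promoter was that of Aldh1a2, which encodes the retinaldehyde dehydrogenase of the trunk mesoderm. Its peak (chr9:71063071-71064110) was 1039 bp wide and centred 6 bp upstream of the TSS by the deposited distance. The central 200 bp had a GC content of 73.5% and an observed to expected CpG ratio of 1.10, and its sequence was single-copy. The second Aldh1a2 peak (chr9:71088633-71089172) was 539 bp wide and lay in an intron, 25306 bp downstream of the TSS, with a GC content of 49.5%. It held the CA repeat shown above, and its 31-base words occurred a median of 2 times in the genome, which is the lowest value counted as multi-copy. With words of 75 bases it counted as single-copy.

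Aldh1a3, the retinaldehyde dehydrogenase best known from the eye and olfactory region, had 1 peak (chr7:73685957-73687177), 1220 bp wide and 114204 bp upstream of its TSS. It was intergenic, and its 31-base words occurred a median of 2531.5 times in the genome. A single-copy peak at the promoter of the neighbouring gene Lrrk1, a protein kinase, lay nearer, 39470 bp from the Aldh1a3 start. Aldh1a1, the retinaldehyde dehydrogenase of the dorsal retina and adult tissues, had no assigned peak. The peak nearest to its start was 80942 bp away, carried the name E030003E18Rik and lay in sequence with 218 copies.

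Among the breakdown enzymes, the deposited distances gave none a peak within 1 kb. Cyp26b1, which protects embryonic tissues such as the limb and hindbrain from retinoic acid, had 3 single-copy peaks close together inside the gene. They were 783 bp wide at 5944 bp downstream of the TSS (chr6:84537469-84538252), 348 bp wide at 5131 bp (chr6:84538499-84538847) and 550 bp wide at 4637 bp (chr6:84538892-84539442). The gaps between them were 247 bp and 45 bp. Such short gaps were rare in the list, where 246 of 14061 neighbouring pairs (1.75%) lay within 1 kb. GENCODE annotates the start of the shorter transcript, Cyp26b1-202, inside this group of peaks. The peak midpoints lay 771 bp downstream, 42 bp upstream and 536 bp upstream of that start. Counted by GENCODE starts, the genes with a peak within 1 kb were thus 5 and not 4. No share of all protein-coding genes by GENCODE starts is given here, so the 5 has no comparison. GC content was 67.0%, 78.5% and 69.5%, and the 348 bp peak was the narrowest of the 19.

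The other Cyp26b1 peaks lay upstream, in introns of Exoc6b, a gene of the exocyst complex that neighbours Cyp26b1. These were 1241 bp wide at 94044 bp (chr6:84637326-84638567) and 1389 bp wide at 170983 bp (chr6:84714191-84715580). Both were multi-copy, with medians of 2650.5 and 367 copies, and both had a GC content of 63.5%. For the farther peak the closest GENCODE start was that of an Exoc6b transcript, 55449 bp away.

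Cyp26c1 and Cyp26a1, which lie side by side on chromosome 19, had the same peak as the one nearest to their starts. It was assigned to Cyp26c1 (chr19:37761400-37762542), was 1142 bp wide and lay 1801 bp downstream of the Cyp26c1 TSS, with its midpoint in an intron. The sequence was single-copy, with a GC content of 63.5% and a CpG ratio of 0.45. The Cyp26a1 start lay 10326 bp from its midpoint. Cyp26a1, the enzyme most strongly induced by retinoic acid in many cells, had 1 assigned peak of its own (chr19:37889636-37890127). That peak was 491 bp wide, 117583 bp downstream of the TSS and intergenic. Its central 200 bp held no CpG and were purine throughout on the plus strand, and the 31-base words had a median of 42 copies. A central window at least 95% purine or pyrimidine was found in 1263 peaks of the list (8.97%).

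The receptors Rara, Rarg and Rxra each had a peak over a start site, and Rarb did not. Rxra, the shared heterodimer partner, had the widest of the 19 peaks (chr2:27531918-27533549), at 1631 bp. Its midpoint lay 12 bp downstream of the TSS in an untranslated region, with a GC content of 81.5% and a CpG ratio of 1.18. Rara, the broadly expressed receptor, had a peak of 1456 bp (chr11:98820945-98822401) centred 112 bp upstream of the assigned TSS. In GENCODE it covered the start of the internal transcript Rara-004, 52 bp from its midpoint, and lay in introns of the longer transcripts. The farthest upstream start of Rara was 32542 bp away. Its other peak (chr11:98831335-98831884) was 549 bp wide, 9824 bp downstream of the assigned TSS and in a coding exon. The GC content was 71.5% at the promoter peak and 63.5% at the exonic one.

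Rarg, the receptor prominent in early mesoderm and skin, had 3 single-copy peaks at 2 start sites. The peak at Rarg-001 (chr15:102087380-102088397) was 1017 bp wide, 65 bp downstream of the TSS, with a GC content of 63.5%. The others lay upstream of the internal start of Rarg-002. They were 555 bp wide at 691 bp (chr15:102077345-102077900) and 485 bp wide at 1338 bp (chr15:102078027-102078512). A gap of 127 bp separated them, and their GC content was 75% and 82.0%, the latter the highest of the 19. In Rara, Rarg and Cyp26b1, single-copy peaks therefore lay within 1 kb of an internal start.

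Rarb, the receptor gene that retinoic acid itself induces, had 3 peaks and all were multi-copy. The first (chr14:17485166-17486055) was 889 bp wide and 77620 bp upstream of the start of the shorter transcript, in an intron of the longer one, with a median of 172 copies. The second (chr14:17806477-17807208) was 731 bp wide, with a deposited distance of 108003 bp downstream of an upstream Rarb start. The third (chr14:17857720-17859020) was 1300 bp wide, 56475 bp downstream of the same start. GENCODE has no such start and places these midpoints 155462 bp and 206990 bp upstream of Rarb, in intergenic sequence. Their 31-base words had medians of 2639 and 2185.5 copies. With 75-base words the medians were 2 and 2.5, so in longer windows few exact copies remained.

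A peak was counted as multi-copy where the 31-base words of its central 200 bp occurred a median of 2 or more times in the genome. By this measure all 11 peaks within 10 kb were single-copy and all 8 beyond 10 kb were multi-copy. Over the whole list, 10.3% of the peaks within 10 kb and 81.2% of those beyond were multi-copy. The share over all distances was 42.1% for the 19 peaks and 46.5% for all peaks. With 75-base words 6 of the 8 remained multi-copy, and the Cyp26a1 peak and the intronic Aldh1a2 peak were single-copy. Words of this length were counted for the 19 peaks only, so there is no share over the list to set beside this. The 75-base medians were 1580 for the Aldh1a3 peak, 1569 for the Cyp26b1 peak at 94044 bp and 29 for the first Rarb peak. The others lay near the cutoff, at 3 for the farther Cyp26b1 peak and 2 and 2.5 for the other Rarb peaks. How the aligner placed reads in multi-copy sequence was not tested. Multi-copy peaks beyond 10 kb were assigned to 5 of the 10 genes, against 13.0% of protein-coding genes. For Aldh1a3, Cyp26a1 and Rarb there was no other peak.

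**Figure D2:**
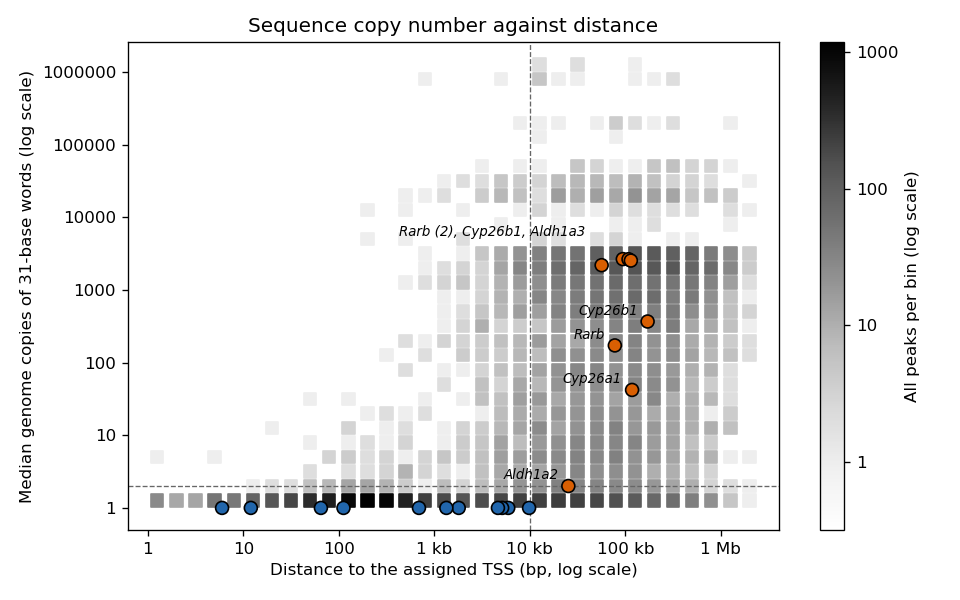
The horizontal axis is the distance to the assigned TSS in bp and the vertical axis the median number of genome copies of the 31-base words in the central 200 bp, both logarithmic. Grey squares are all 14082 peaks, darker where more fall in a bin, and coloured points are the 19 peaks of retinoic acid genes, with dashed lines at 10 kb and 2 copies. The blue points all lie at 1 copy left of the 10 kb line, and the orange points lie right of it.

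Tandem units were sought by sliding each peak along itself by 150 to 300 bp and counting identical bases. At the best shift, 5 of the 19 peaks reached 50% identity (26.3%), against 24.8% of all peaks. These were the Aldh1a3 peak (70.6% at 212 bp), the distal Cyp26b1 peaks (56.9% at 212 bp and 71.5% at 214 bp) and the Rarb peaks at 108003 bp (56.8% at 212 bp) and 56475 bp (53.6% at 212 bp). All 5 were among the 8 peaks beyond 10 kb (62.5%), where the share over the list was 45.0%. Of the peaks within 10 kb 0 of 11 reached it, against 3.67%. Shifts of 212, 208 and 214 bp were the commonest over the list and made up 63.1% of its 3489 tandem peaks. Single units of the 4 peaks with a 212 bp period were 96.2% to 98.1% identical over 212 bases, although they came from chromosomes 6, 7 and 14. The first Rarb peak had no such period and shared 0 of its 31-base words with the others. Which repeat family these units belong to was not annotated here.

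**Figure D3:**
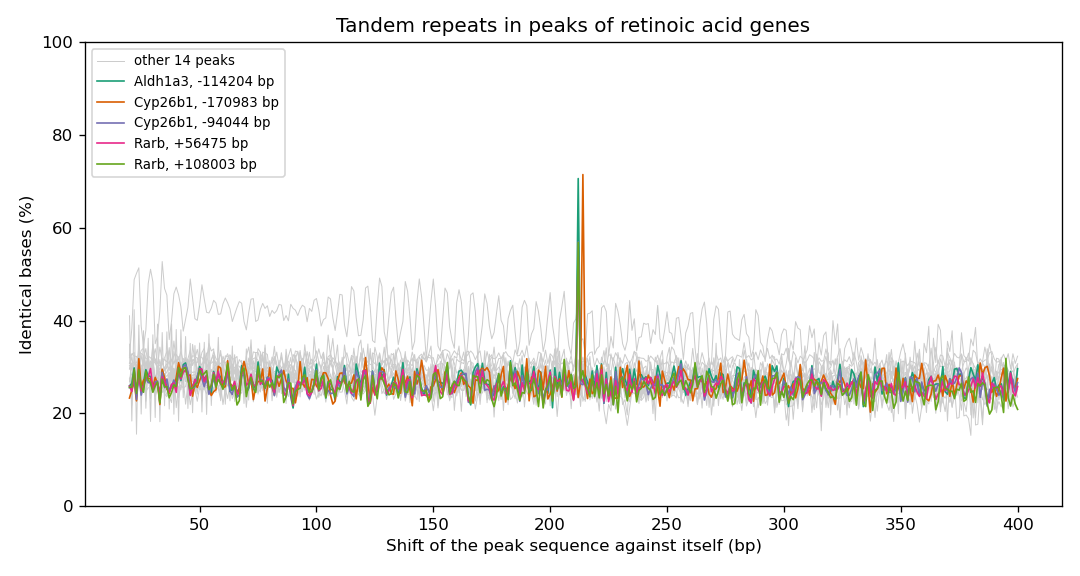
Share of identical bases (vertical axis, %) when each peak sequence is slid along itself by the distance on the horizontal axis (bp). Coloured lines are the 5 peaks with a tandem unit, which spike at 212 or 214 bp, and grey lines are the other 14, where the raised wavy line is the peak assigned to Cyp26a1.

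TAAT, the core that homeodomain proteins contact, was searched on both strands. It occurred in the central 200 bp of 7 of the 19 peaks (36.8%), against 19.4% of all peaks. The shares were alike in the central 100 bp (10.5%, against 9.59%) and in the other order in the whole peak (68.4%, against 73.8%). The 5 tandem-unit peaks were among the 7, and in each of the 5 TAAT matches recurred at the unit length. The printed units were cut to start at such a TAAT, so that they carry the core was fixed by this choice. In the Aldh1a3 peak 4 TAAT matches stood 212 bp apart on the same strand, and in the farther Cyp26b1 peak 4 stood 214 bp apart. The intronic peak of Aldh1a2 held another, just inside the window and beyond the end of the CA repeat printed above. Among the single-copy peaks 1 of 11 held the core centrally (9.09%), against 9.67% of all single-copy peaks. That was the Cyp26c1 peak, where the TAAT was 84 bp from the midpoint, overlapping the splice donor at the start of the intron shown above. The longer Isl1-like forms CTAATGG and CTAATTG, which contain TAAT, occurred in 0 of the 19 whole peaks, against 5.0% of all peaks. The absence says only that these letters are not in these windows.

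The nuclear receptor core hexamer was searched as AGGTCA or GGGTCA or AGTTCA or GGTTCA on both strands. It lay in the central 200 bp of 3 of the 19 peaks (15.8%), against 11.7% of all peaks. In the central 100 bp the count was again 3 (15.8%), against 5.99%. In the whole peak it was 8 (42.1%), against 58.0%, so the order turned with the window. The 3 peaks with a central hexamer were single-copy. They were the Cyp26c1 peak, the Cyp26b1 peak at 4637 bp and the Rarg peak at 691 bp, where an AGTTCA lay 7 bp from the midpoint. A DR5 of these hexamers occurred in 1 of the 19 whole peaks, against 19 of 14082 over the list (0.135%). It was the one in the Rara promoter peak, printed above, at chr11:98821322-98821338 and 344 bp before the midpoint. Among the 19, 0 held a DR1 and 0 a DR2, and over the list these were rare as well (0.298% and 0.227%). These matches are descriptions of the letters and do not show that a receptor binds there.

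RefSeq promoters, taken as 250 bases before to 50 after each start on GRCm38.p6, matched 9 of the 10 genes with 15 promoters. A DR5 occurred in 32 of 32851 promoters (0.0974%), and 2 of these were the promoters of Cyp26a1 and Rarb. Their last 80 bases before the start are printed on the strand of the gene, with the DR5 in capitals (chr19:37697728-37697807, plus strand, and chr14:16575477-16575556, minus strand, both GRCm38.p6). In Cyp26a1 the repeat reads on the opposite strand.
Cyp26a1 promoter: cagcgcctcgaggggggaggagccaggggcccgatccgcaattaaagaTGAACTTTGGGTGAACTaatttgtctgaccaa
Rarb promoter: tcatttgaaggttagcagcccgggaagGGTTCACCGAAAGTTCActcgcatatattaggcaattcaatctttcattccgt

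Counted by peak midpoints, neither of these promoters had an Isl1 peak within 10 kb. The 250 upstream bases of each matched mm9 at 1 position, and the nearest peak midpoint was 10.1 kb from that of Cyp26a1 (the Cyp26c1 peak) and 77.6 kb from that of Rarb. The Rara DR5 was found by searching peaks and lies outside the RefSeq promoter windows, so the 3 genes were not reached by the same search.

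In width, the 19 peaks ranged from 348 to 1631 bp with a median of 889, and the median of all peaks was 947. Under 500 bp were 3 of the 19 (15.8%), against 6.07%: the middle Cyp26b1 peak, the Rarg peak at 1338 bp and the Cyp26a1 peak. The 11 peaks within 10 kb had a median of 783 bp, against 1008 bp for all peaks at such distances, and the 8 farther ones 1054.5 bp, against 882 bp. All 4 medians lay between the quartiles of the list, 717 and 1243 bp. By distance, 5 of the 19 lay within 1 kb (26.3%, against 38.5%), 6 between 1 and 10 kb (31.6%, against 10.5%), 4 between 10 and 100 kb (21.1%, against 28.1%) and 4 beyond (21.1%, against 23.0%). The group between 1 and 10 kb held the Cyp26b1 cluster of 3 peaks and single peaks of Cyp26c1, Rara and Rarg. GC content within 10 kb had a median of 71.5%, against 73.0%, and beyond 10 kb 64.2%, against 63.5%, so base composition followed the list at both distances.

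**Figure D4:**
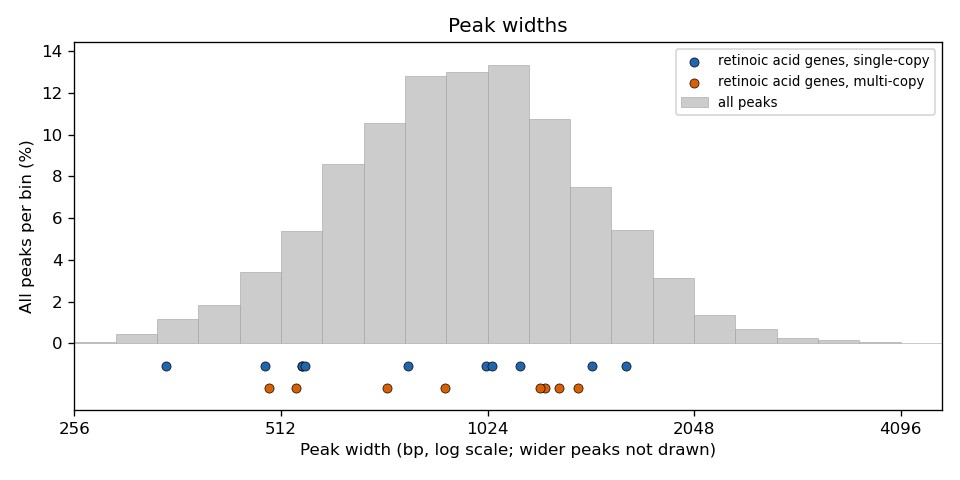
Grey bars give the share of all 14082 peaks (vertical axis, %) by peak width (horizontal axis, bp, logarithmic). Points under the bars are the 19 peaks of retinoic acid genes, blue for single-copy and orange for multi-copy sequence, and lie between 348 and 1631 bp.

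The rest of the retinoid pathway was read from a list of 30 further genes. A peak was assigned to 12 (40.0%, against 39.0% of all protein-coding genes), and to 10 within 1 kb (33.3%, against 24.2%). All 6 co-regulators of nuclear receptors had one within 1 kb, among them the coactivators Ncoa1 (278 bp), Ncoa2 (430 bp) and Ncoa3 (229 bp), the corepressor Ncor1 (102 bp) and Nrip1 (198 bp), which binds liganded receptors. In the steps before retinal, 3 of 11 conversion genes had a peak. Rdh10, which oxidises retinol to retinal for Aldh1a2 in the embryo, had a single-copy peak of 1548 bp at 299 bp upstream of its TSS. Adh5 had one at 124 bp, and Dhrs3, which reduces retinal back to retinol, had 3 multi-copy peaks from 2689 to 67059 bp. Of 6 transport genes, Rbp4, the plasma retinol carrier, had a peak at 10 bp, and Ttr, its partner, had peaks at 31327 and 42950 bp, the latter the widest of the whole list at 15349 bp. The 2 esterification genes and the 3 retinoic acid carriers had none. Of the other Rxr genes, Rxrb had a promoter peak at 200 bp and Rxrg had none.

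Of 10 genes known to respond to retinoic acid, 4 had a single-copy peak, against 28.7% of all protein-coding genes. A peak of either kind was assigned to 6, against 39.0%, and 5 had it within 1 kb, against 24.2%. These 5 were Cdx1 (95 bp), Fgf8 (33 bp), Nr2f1 (63 bp), Nr2f2 (398 bp) and Stra8 (573 bp, in sequence with 7 copies). Among those with none were Hoxb1, Hoxd4 and Tgm2. Nr2f1 and Nr2f2, orphan receptors of atrial and second heart field cells, had 6 and 5 peaks, with multi-copy ones among them. For Nr2f1 these had 408, 94 and 1792 copies, at 57728, 62477 and 1223140 bp, and the others were single-copy. For Nr2f2 1 had 1586 copies, at 317471 bp, and the others were single-copy, as far as 500443 bp. Other nuclear receptors had a peak in 29 of 44 genes (65.9%, against 39.0%) and within 1 kb in 15 (34.1%, against 24.2%). Of the 4 retinoic acid and Rxr receptors described here, 3 had one within 1 kb. Other aldehyde dehydrogenases had a peak in 4 of 17 genes (23.5%, against 39.0%) and within 1 kb in 1 (5.88%, against 24.2%). Rxrb, Nr2f1 and Nr2f2 stand in more than 1 of these lists.

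**Figure D5:**
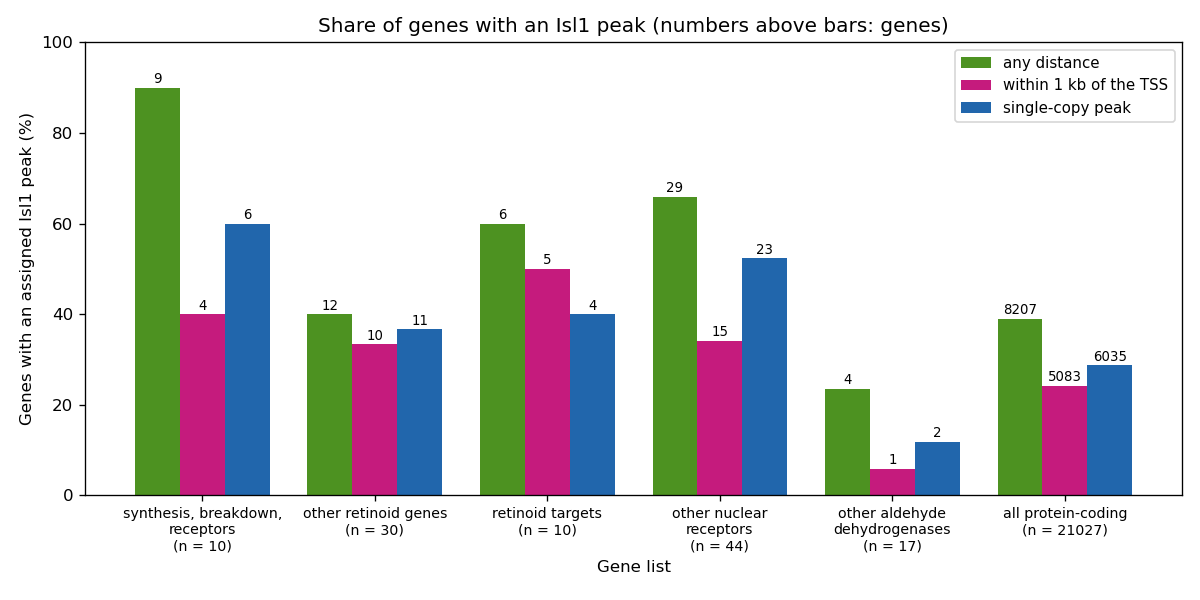
Bars give the share of genes (vertical axis, %) with an assigned Isl1 peak at any distance (green), within 1 kb of the TSS (magenta) or in single-copy sequence (blue), with the number of genes above each bar. The retinoic acid genes stand at 9, 4 and 6 of 10, against 39.0%, 24.2% and 28.7% of all 21027 protein-coding genes, and the lists differ in size, so that 1 gene moves the first group by 10 percentage points.

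The closest GENCODE start of a protein-coding transcript gave the same gene for 18 of the 19 peaks, against 73.5% of all peaks. The exception was the farther Exoc6b peak. All members are protein-coding, and a peak named for a non-coding gene could not match, so these shares are not of like peaks. The same search also gave the members 5 peaks that the list names for others, all multi-copy. They were the E030003E18Rik peak for Aldh1a1, a peak 19571 bp upstream of Aldh1a2 and 3 peaks more than 100 kb downstream of the Cyp26b1 start.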

How the data were processed

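The authors aligned reads of 2 Isl1 ChIP replicates and 1 input to mm9 with Bowtie2, removed duplicates with Picard 1.136, called peaks with MACS without a fragment model, dropped blacklisted regions, kept peaks common to both replicates with bedtools 2.15 and assigned the closest TSS with HOMER. The deposited values are positions and distances in bp. They carry no score, so peaks just under the cutoff are not seen and strengths cannot be ranked. It is not stated whether starts count from 0 or 1. Groups came from the sample titles.

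Of 14165 lines, 83 identical repeats were dropped, none of a member. Members were found by symbol. Word copies were counted over the NCBI m37 genome (mm9) on both strands; positions were annotated with GENCODE vM1. The 21027 protein-coding genes are those with a curated RefSeq transcript (GRCm38.p6 table, names only); 29 of 30 further retinoid genes matched it. Motif, word and tandem searches (Python 3.11.15, pandas 2.3.3, numpy 2.4.6, pysam 0.24.0) were tested on simulated data. The tandem search and the choice of printed sequences were made after seeing the peaks. The members and lists were chosen with earlier results of these data known. No test was run, since there is 1 list and no replicate values. Some genes and 1 sequence that these rules would name are not reported here. Named were all members, genes of the further retinoid and target lists, and genes whose body holds or start is nearer to a member peak; Lrrk1 and E030003E18Rik, the names of the nearest peaks, were added after their values were seen. Alternatives changed the peaks used, assignment, distance, window and word length.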

Additional observations from a re-analysis of the deposited data

How the results depend on the processing

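Over 10 results, 43 of 52 alternative values stayed within 1.5 times the count, or within the spread of the peaks for a median, and 9 moved. Using only single-copy peaks, or only peaks within 10 kb, left 11 of the 19 peaks, and in either case 6 of the 9 genes. The number of peaks with a central TAAT was 1 in single-copy peaks (9.09%, against 9.67% of such peaks in the list), 2 in the central 100 bp (10.5%, against 9.59%) and 13 in the whole peak (68.4%, against 73.8%), in place of 7 (36.8%, against 19.4%). The number with a core hexamer was 8 in the whole peak (42.1%, against 58.0%), in place of 3 (15.8%, against 11.7%). It stayed at 3 in the central 100 bp (15.8%, against 5.99%). Asking for at least 2 peaks left 5 of the 10 members, 5 of the 30 further retinoid genes and 3 of the 10 targets. Over all protein-coding genes the share with at least 2 peaks was 11.0%. Words of 75 bases, counted for the 19 peaks only, made 6 and not 8 of them multi-copy. No paired analysis was possible because both replicates are combined in 1 list, and for the same reason neither replicate could be left out. Depth is unknown, so a gene without a peak may lie under the detection limit.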
